A study of Mus musculus with 2 samples.

Results

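The genes described here are the ephrins and semaphorins, which are ligands, and their receptors, the Eph kinases, plexins and neuropilins. Within these families members were taken by gene symbol: every probe set with a single platform symbol that carried a family's stem was included, whatever its values. This gave 124 of 45101 probe sets and 53 of 18194 named genes. Of the 53, 28 were ligands (8 ephrins and 20 semaphorins) and 24 were receptors (13 Eph receptors, 9 plexins and 2 neuropilins). The remaining one, Plxna4os1, is an antisense RNA that shares the plexin stem. It was not above background and is left out of the counts. Ephb2 was not analysed here.

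RNA came from C57Bl6 mice aged 21 days, and both groups shared strain, age and handling. One array held RNA laser-cut from the bulge, the niche of the follicle's stem cells, and 1 array held RNA laser-cut from a region labelled hairshaft. The labels give no sex, number of animals or body site. Each group is 1 array without replicates, so no test was possible and every difference describes these 2 arrays only. Values are log2 GCRMA values, which are background-corrected probe-set signals. A difference is bulge minus hairshaft on the log2 scale, so 1 equals 2-fold. Where a pair of values is given, the bulge value comes first.

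Ephrins bind Eph receptor tyrosine kinases on neighbouring cells. Both partners are anchored in the membrane, and signals run into both cells, usually towards repulsion or sorting. Ephrin-A proteins hang on a lipid anchor and mainly bind EphA receptors, whereas ephrin-B proteins cross the membrane and mainly bind EphB receptors. Semaphorins act through plexins, which switch small GTPases and so collapse or redirect the cytoskeleton. Class 3 semaphorins are secreted, and most need a neuropilin as the binding partner of a plexin-A. Sema3E is the known exception, which binds plexin-D1 directly. In skin these families guide nerves and vessels, and they also act between keratinocytes.

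The promoter stretches of the members with the 3 largest differences are shown first, beside that of Epha1, a receptor whose 2 probe sets above background were both higher on the hairshaft array. Each is the 250 bases before the RefSeq start (GRCm38.p6), 5′ to 3′ on the gene's own strand. Capitals mark GC boxes (GGGCGG on either strand) and the E-box CAGCTG. Sema3g lies at chr14:31217623-31217872 on the plus strand, Sema3e at chr5:14025026-14025275 on the plus strand, Plxnd1 at chr6:115995006-115995255 on the minus strand and Epha1 at chr6:42373269-42373518 on the minus strand.
Sema3g: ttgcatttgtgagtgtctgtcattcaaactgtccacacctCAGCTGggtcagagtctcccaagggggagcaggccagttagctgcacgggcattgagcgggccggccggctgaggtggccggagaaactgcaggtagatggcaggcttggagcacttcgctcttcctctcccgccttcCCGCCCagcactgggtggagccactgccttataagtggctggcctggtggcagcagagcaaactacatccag
Sema3e: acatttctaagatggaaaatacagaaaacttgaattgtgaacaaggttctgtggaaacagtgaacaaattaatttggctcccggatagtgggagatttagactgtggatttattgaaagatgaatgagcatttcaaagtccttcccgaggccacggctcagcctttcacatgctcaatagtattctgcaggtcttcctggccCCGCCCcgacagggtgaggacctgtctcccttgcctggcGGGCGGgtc
Plxnd1: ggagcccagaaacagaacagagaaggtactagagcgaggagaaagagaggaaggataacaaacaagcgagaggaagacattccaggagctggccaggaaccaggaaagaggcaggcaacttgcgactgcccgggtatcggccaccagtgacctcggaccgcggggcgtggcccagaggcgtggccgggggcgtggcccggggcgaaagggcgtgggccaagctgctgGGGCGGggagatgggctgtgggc
Epha1: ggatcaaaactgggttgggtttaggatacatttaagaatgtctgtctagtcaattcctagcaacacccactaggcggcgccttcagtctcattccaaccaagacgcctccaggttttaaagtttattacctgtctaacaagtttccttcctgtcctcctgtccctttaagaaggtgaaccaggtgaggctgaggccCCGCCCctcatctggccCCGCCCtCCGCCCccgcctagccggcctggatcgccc

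All 4 stretches held a GC box: Sema3g and Plxnd1 held 1 each, Sema3e held 2 and Epha1 held 3. RefSeq gave 60 such windows for 46 of the 53 members. A GC box lay in 46 of the 60 (76.7%), against 32.7% of all 32851 windows in the RefSeq table. The median GC content was 64.2% in the members' windows and 52.4% in all windows. The 6 windows of members at least 2-fold higher on the bulge array had a median GC content of 64.6%, and the 5 windows of those higher on the hairshaft array 65.6%, so base content did not separate the directions. TATAAA was in 1 of the 60 windows (Efnb2) against 12.4% of all windows. CCAAT was in 18 (30.0%) against 33.8%, CACGTG in 3 (5.0%) against 6.02%, and CAGCTG in 9 (15.0%) against 13.0%. These matches are letters in a window, counted on both strands, and not sites shown to be bound.

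Before the members, both arrays were set against marker genes of their labels and of other skin cells. Of 10 bulge stem cell markers, 8 were at least 2-fold higher on the bulge array and none on the hairshaft array. Of 9 hair shaft keratins, 6 were at least 2-fold higher on the bulge array, none on the hairshaft array, and 4 were not above background on the hairshaft array. The 9 keratins read from 2.29 to 3.57 on the hairshaft array, below or near the floor, so the keratins that define a hair shaft were absent or nearly so under that label. Muscle, fat and vessel genes separated the arrays more than the members did: all 12 skeletal muscle, all 8 adipocyte and all 10 endothelial markers measured were at least 2-fold higher on the bulge array. In bulk tissue, fewer cells of a type and less RNA per cell cannot be told apart.

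**Figure D1:**
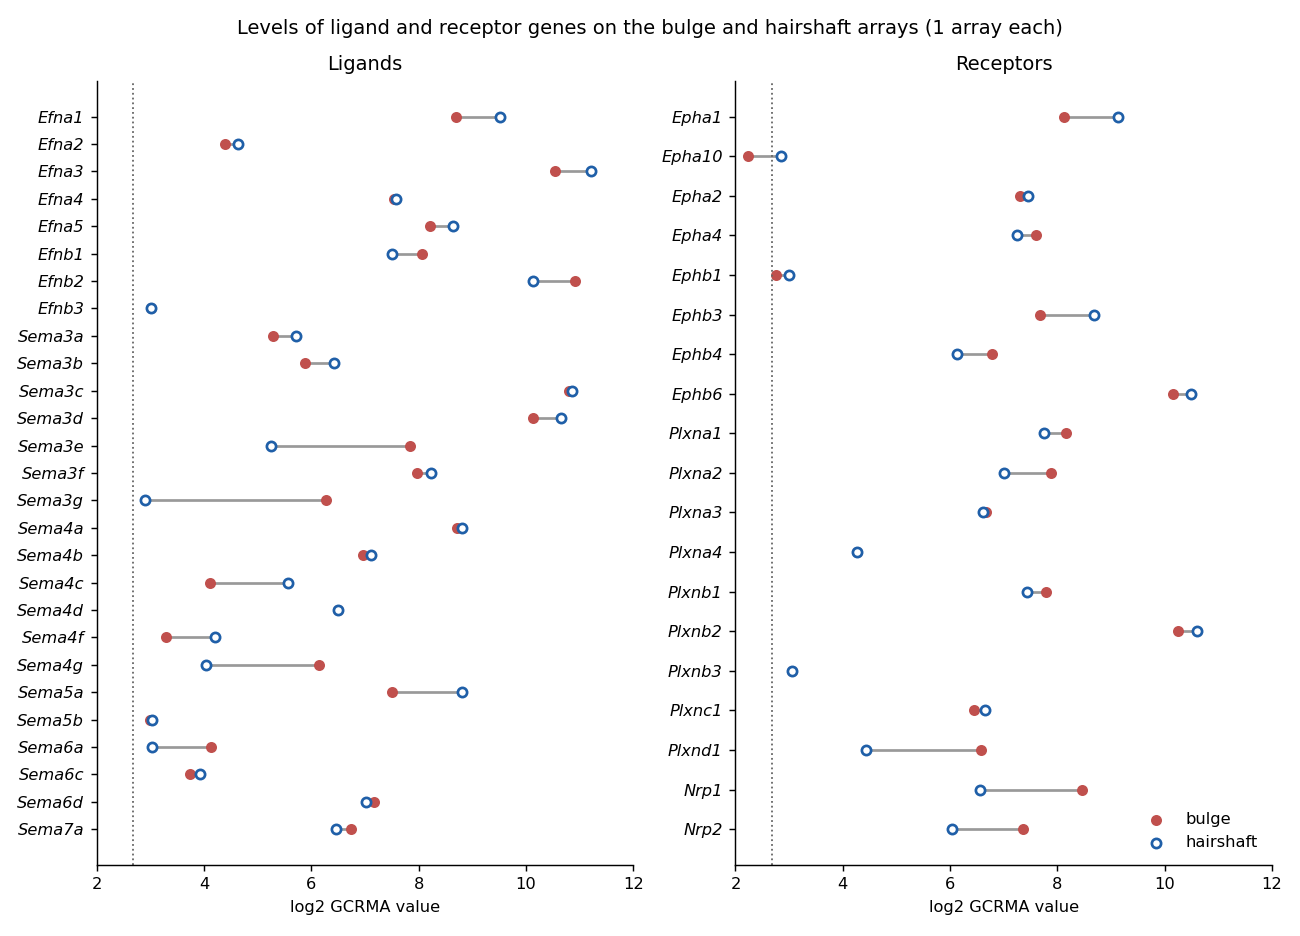
Levels (log2 GCRMA value) of the 27 ligand and 19 receptor genes above background on at least 1 array, with filled points for the bulge array and open points for the hairshaft array, 1 array each. The dotted line is the background floor of 2.68; the longest bars belong to Sema3g, Sema3e, Plxnd1, Sema4g and Nrp1, all with the bulge point to the right.

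Most ligands and receptors read alike on both arrays. Above the background floor of 2.68 lay 27 of 28 ligands and 19 of 24 receptors. This floor was set from 80 olfactory and vomeronasal receptor probe sets, at the 95th percentile of their values. Of the 27 ligands, 4 (14.8%) were at least 2-fold higher on the bulge array, namely Sema3g, Sema3e, Sema4g and Sema6a, and 2 (7.41%) on the hairshaft array, namely Sema4c and Sema5a. Of the 19 receptors, 3 (15.8%) were at least 2-fold higher on the bulge array, namely Plxnd1, Nrp1 and Nrp2, and 2 (10.5%) on the hairshaft array, namely Epha1 and Ephb3. Among all 13329 genes above the floor these shares were 11.4% and 4.91%. The shares on the bulge side were thus near the background for both roles. Those on the hairshaft side rest on 2 genes each, and both receptors lie at the 2-fold limit. Ligands and receptors had much the same shares as each other.

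The medians were also close to the background. The median difference was -0.08 over the 27 ligands, 0.00 over the 19 receptors and 0.00 over all 13329 genes. By sign, 17 ligands were higher on the hairshaft array, 8 on the bulge array and 2 read the same. Of the receptors, 8 were higher on the hairshaft array, 9 on the bulge array and 2 read the same. By probe set, 50.6% of the members' 85 above the floor were higher on the hairshaft array and 42.4% on the bulge array. Over all probe sets above the floor these shares were 48.0% and 40.7%. The differences ran from -1.45 to 3.38 in ligands and from -1.01 to 2.14 in receptors, so the long tail of each role was towards the bulge. Over all genes too, more were at least 2-fold higher on the bulge array (11.4%) than on the hairshaft array (4.91%). Close to the 2-fold limit, Epha1 (-1.01), Ephb3 (-1.002) and Sema6a (1.09) lay just inside, and Sema4f (-0.92) and Plxna2 (0.87) just outside.

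**Figure D2:**
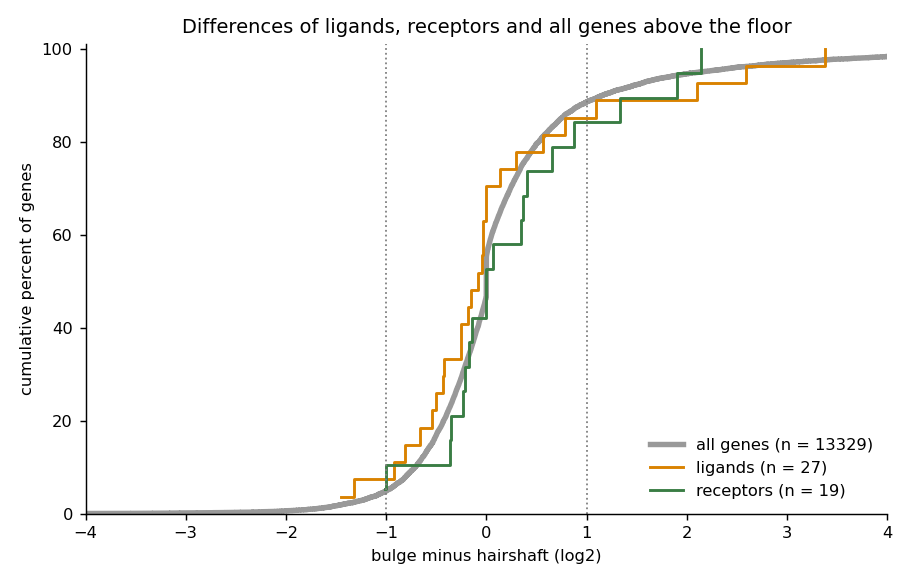
Cumulative percent of genes (y axis) by the bulge minus hairshaft difference on the log2 scale (x axis), for 27 ligands, 19 receptors and all 13329 genes above background. The curves of ligands and receptors run close to that of all genes; the dotted lines mark 2-fold, and genes beyond 4 log2 units are off the axis.

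Ephrin-A ligands were all a little higher on the hairshaft array, and none reached 2-fold. Efna1, which binds EphA2 and is common in epidermis, read 8.70 on the bulge array against 9.51 on the hairshaft array. Efna3 read 10.54 and 11.20, and Efna5 read 8.21 and 8.64. Efna4 read 7.54 on the bulge array against 7.58 on the hairshaft array, and Efna2 read 4.38 and 4.63. The 5 differences ran from -0.81 to -0.04 with a median of -0.42, and all 7 ephrin-A probe sets above the floor were higher on the hairshaft array. Over all probe sets above the floor, 48.0% were higher there. With the loess trend removed, 4 of the 5 genes kept this sign and Efna4 read 0.00 (log2), so only the direction of the gene nearest 0 depended on the scaling.

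Of the 3 ephrin-B ligands, only Efnb2 was higher on the bulge array in each of its probe sets. Efnb2, the ephrin of arterial endothelium, read 10.92 on the bulge array against 10.13 on the hairshaft array with the probe set used, a difference of 0.79. Its other 3 probe sets gave larger differences, and the 4 together ran from 0.79 to 2.16. The mean of the 4 was 1.32, past 2-fold, so the count of ligands higher on the bulge array rests in part on which probe set stands for Efnb2. Efnb1, a partner of EphB receptors, read 8.07 and 7.50. Of its 3 probe sets, 2 read higher on the bulge array while 1 read higher on the hairshaft array (-0.63), so its direction was not settled. Efnb3 read 3.01 on both arrays, near the floor.

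Eph receptors had no member at least 2-fold higher on the bulge array. Epha1, the founding Eph receptor and a gene of epithelia, read 8.12 on the bulge array against 9.13 on the hairshaft array, 2.01-fold apart. Its second probe set above the floor read 3.84 and 5.58, a difference of -1.74. Both probe sets thus pointed to the hairshaft array, and their mean difference was -1.37. The gene missed 2-fold with 16 added on the linear scale (the offset of 16; -0.97), after removal of the loess trend (-0.92) and when its remaining probe set, below the floor on both arrays, entered the mean (-0.92). Ephb3, a receptor for ephrin-B ligands, has 1 probe set and read 7.68 and 8.68, 2.00-fold apart. It was under 2-fold with the offset (-0.95) and the loess trend removed (-0.94).

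The other Eph receptors above the floor differed by less than 2-fold, from -0.35 to 0.66. Epha2, an ephrin-A receptor of keratinocytes, read 7.31 on the bulge array against 7.45 on the hairshaft array. Ephb6, which lacks kinase activity, read 10.15 and 10.49, and Ephb4, the venous partner of ephrin-B2, read 6.78 and 6.12. Epha4, which binds ephrins of both classes, read 7.59 and 7.24 with the probe set used, yet 3 of its 4 probe sets above the floor were higher on the hairshaft array. Ephb1 read 2.76 and 2.99, near the floor, and Epha10 was above it on the hairshaft array only, at 2.86. Epha3, Epha5, Epha6, Epha7 and Epha8 were below the floor on both arrays. Of all 12 Eph receptor probe sets above the floor, 10 were higher on the hairshaft array and 2 on the bulge array. Over all probe sets above the floor, 48.0% and 40.7% were. The 12 came from 8 genes, with 4 from Epha4 and 2 from Epha1, and those of Ephb1 and Epha10 lay near the floor.

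Class 3 semaphorins split into a bulge pair and a larger group that leaned slightly to the hairshaft array. Sema3g, a secreted ligand known from arteries and fat, read 6.28 on the bulge array against 2.90 on the hairshaft array, 10.4-fold apart. The hairshaft value lay just over the floor, and with the 99th percentile floor, 4.21, the difference was 2.07 in place of 3.38, and with the offset of 16 it was 1.995. Sema3e, the plexin-D1 ligand, read 7.83 and 5.24, a 6.04-fold difference. Its 4 probe sets were all at least 2-fold higher on the bulge array, from 2.21 to 2.59. No other member had 4 probe sets past 2-fold in 1 direction, but only Efnb2, Epha4, Nrp1 and Plxna2 also had 4 above the floor. Sema3g has 1 probe set and no such repeat.

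The other 5 class 3 genes were under 2-fold apart with the probe set used. Sema3c, a ligand of both neuropilins, read 10.81 on the bulge array against 10.86 on the hairshaft array. Sema3d, also secreted, read 10.14 and 10.64, and Sema3f, the classical neuropilin-2 ligand, read 7.96 and 8.22. Sema3a, the classical neuropilin-1 ligand that repels sensory axons, and Sema3b had differences of -0.43 and -0.54. All 12 probe sets of these 5 genes above the floor were higher on the hairshaft array, from -1.24 to -0.05, with a median of -0.56. These genes were what remained once Sema3e and Sema3g were set apart by their differences, so part of this uniformity comes from the split. In the whole class, 12 of 17 probe sets (70.6%) were higher on the hairshaft array, against 48.0% of all probe sets above the floor, and 5 were at least 2-fold higher on the bulge array. Of the 12 probe sets, 1, a second probe set of Sema3d, passed 2-fold. With the loess trend removed the sign of Sema3c turned (0.09), and the other 4 of these 5 genes kept theirs.

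**Figure D3:**
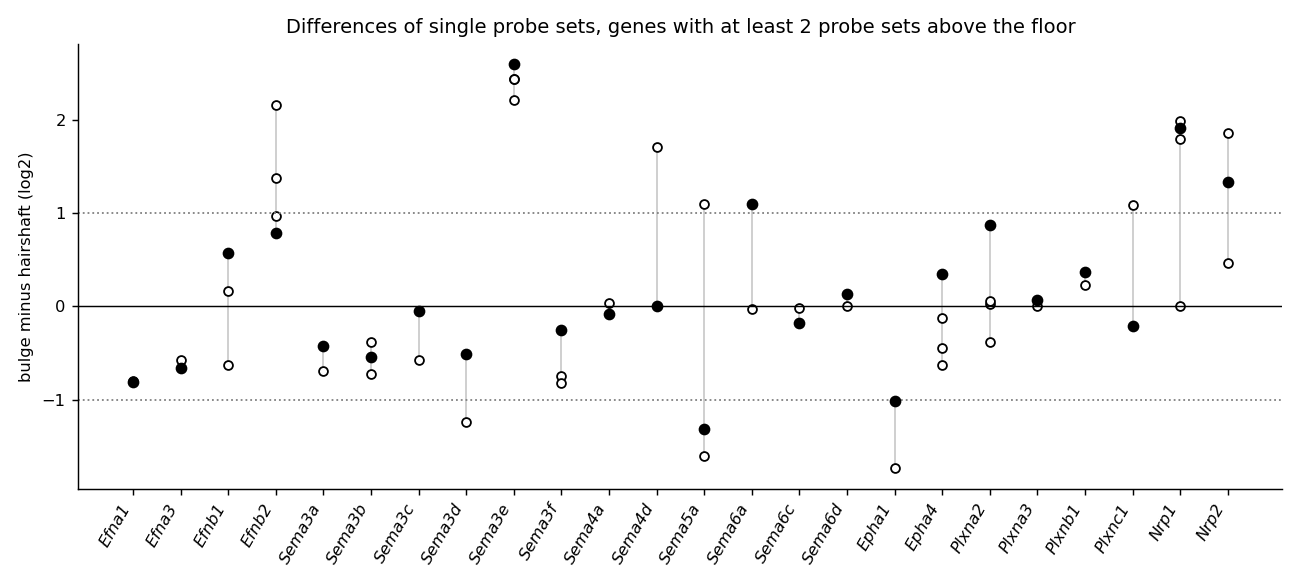
Bulge minus hairshaft difference (log2, y axis) of every probe set above background, for the 24 members with at least 2 such probe sets; filled points are the probe set that stands for the gene and open points the others. The 4 points of Sema3e lie together above 2, whereas those of Sema5a lie on both sides of 0; dotted lines mark 2-fold.

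Transmembrane semaphorins of class 4 had 1 gene past 2-fold in each direction. Sema4g read 6.14 on the bulge array against 4.03 on the hairshaft array, 4.31-fold apart. Sema4c, a ligand of plexin-B2, read 4.11 and 5.56, so that it was 2.73-fold higher on the hairshaft array. Both genes have 1 probe set. With the offset of 16 the difference of Sema4g was 1.42 in place of 2.11, and that of Sema4c was -0.92 in place of -1.45, under 2-fold. Sema4a read 8.72 and 8.80, and Sema4b and Sema4f had differences of -0.15 and -0.92. Sema4d, the plexin-B1 ligand, carried the same value, 6.50, on both arrays with the probe set used, while a second probe set read 4.60 on the bulge array against 2.90 on the hairshaft array.

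Classes 5 to 7 gave the least settled members. Sema5a, a transmembrane semaphorin with thrombospondin repeats, read 7.49 on the bulge array against 8.81 on the hairshaft array, 2.50-fold higher on the latter. Its 3 probe sets above the floor disagreed: 2 were at least 2-fold higher on the hairshaft array and 1 was at least 2-fold higher on the bulge array (1.10). The mean of these 3 differed by -0.67, under 2-fold, and that of all 4 probe sets by -0.50, so its direction rests on the probe set chosen. Sema6a, a ligand of plexin-A2 and plexin-A4, read 4.13 and 3.03 with 1 probe set, and its other probe set above the floor gave -0.03. It was under 2-fold when both were averaged (0.53), when all 3 of its probe sets were (0.35) and with the offset (0.47), and not above the 99th percentile floor. Sema6d, a plexin-A1 ligand, read 7.16 and 7.03. Sema5b, Sema6c and Sema7a, the lipid-anchored ligand of plexin-C1, had differences from -0.18 to 0.29, and Sema6b was below the floor on both arrays.

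Of the plexins, the receptor of Sema3e stood apart. Plxnd1, a plexin known for its role in endothelial guidance, read 6.57 on the bulge array against 4.43 on the hairshaft array, 4.42-fold apart. It has 1 probe set, and the difference ran from 1.57 to 2.14 over 7 processing alternatives. The other 8 plexins were under 2-fold apart, from -0.37 to 0.87. Plxnb2, which binds class 4 semaphorins in epithelia, read 10.24 on the bulge array against 10.61 on the hairshaft array, and Plxnb1 read 7.80 and 7.43. Among the plexin-A genes, which pair with neuropilins or bind class 6 semaphorins, Plxna1 read 8.16 and 7.75, Plxna2 7.87 and 7.005, and Plxna3 6.67 and 6.61.

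Probe sets of the same plexin disagreed in part. The 4 probe sets of Plxna2 ran from -0.38 to 0.87, and their mean difference was 0.14. Plxnc1, the Sema7a receptor, had a difference of -0.21 with the probe set used and 1.09 with the other one above the floor. Plxna4 read 4.26 and Plxnb3 read 3.06 on both arrays.

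Both neuropilins were higher on the bulge array. Nrp1, the co-receptor for Sema3A and for VEGF-A, read 8.47 on the bulge array against 6.56 on the hairshaft array, 3.75-fold apart. Of its 4 probe sets, 3 were at least 2-fold higher on the bulge array and 1 read 4.33 on both arrays. Nrp2, the co-receptor for Sema3F and, in lymphatic vessels, for VEGF-C, read 7.37 and 6.03, a 2.53-fold difference. All 3 of its probe sets above the floor were higher on the bulge array, from 0.46 to 1.85. Averaged over the probe sets above the floor, the difference was 1.42 for Nrp1 and 1.22 for Nrp2. With the remaining probe set of Nrp2, below the floor on both arrays, the mean was 0.88, under 2-fold.

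Set beside each other, known ligand and receptor partners did not share 1 pattern. Sema3e and Plxnd1 were both over 4-fold higher on the bulge array. The neuropilins were higher on the bulge array, as was the class 3 ligand Sema3g, while the class 3 ligands Sema3a, Sema3b, Sema3c, Sema3d and Sema3f read slightly higher on the hairshaft array, except Sema3c with the loess trend removed. Efna1 (-0.81, under 2-fold) and Epha1 (-1.01, at the 2-fold limit) both read higher on the hairshaft array, while Epha2, also a receptor of Efna1, differed by -0.14. Efnb2 and Ephb4 both read higher on the bulge array. That was by under 2-fold for Ephb4 and, with the probe set used, for Efnb2, 2 of whose 4 probe sets passed it. Ephb3, also a receptor of ephrin-B ligands, was higher on the hairshaft array (-1.002). Sema4c was 2.73-fold higher on the hairshaft array, and its receptor Plxnb2 was under 2-fold apart.

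**Figure D4:**
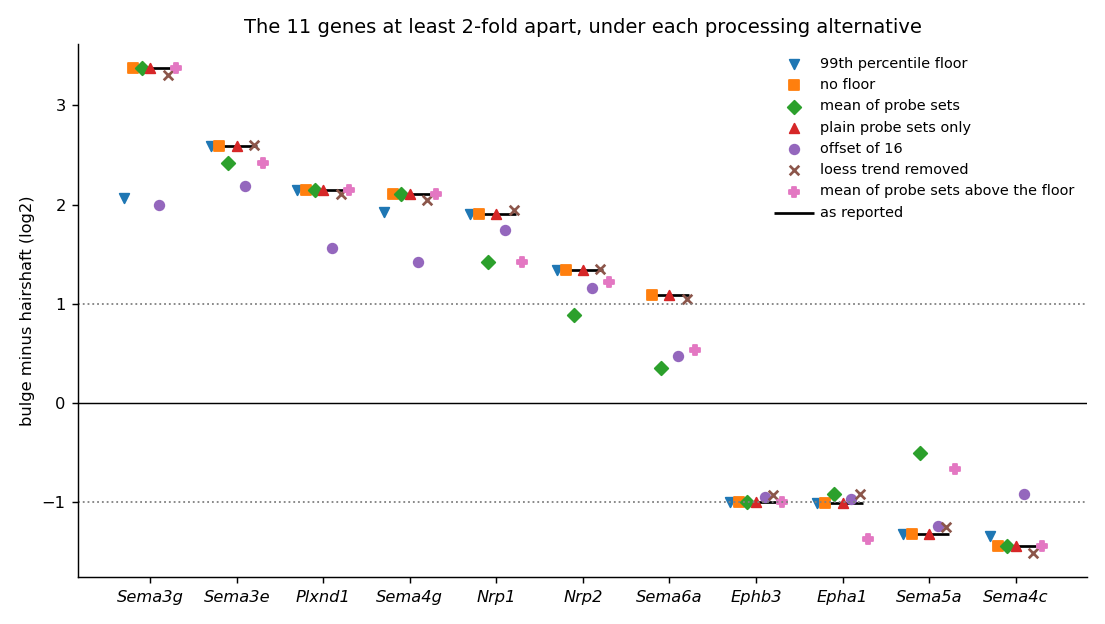
Bulge minus hairshaft difference (log2, y axis) of the 11 genes at least 2-fold apart, as reported (black bars) and under each of 7 processing alternatives (symbols). Sema3g, Sema3e, Plxnd1, Sema4g and Nrp1 stay above 1 throughout, whereas Ephb3 sits on the 2-fold line and Epha1 falls on both sides of it.

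Endothelial and VEGF receptor genes were higher on the same array as the members with the largest differences. The summed linear signal of the 10 endothelial markers was 1487 on the bulge array against 123 on the hairshaft array, where 3 of the 10 were not above the floor. Kdr, the main VEGF receptor and itself 1 of these 10 markers, read 5.79 on the bulge array. It was not above the floor on the hairshaft array, so it was at least 8.66-fold higher. The VEGF receptors Flt1 and Flt4 differed by 1.31 and 0.84, the latter under 2-fold. The summed signal was 28173 and 129 for the adipocyte markers, where 5 of 8 were not above the floor on the hairshaft array. It was 204243 and 104 for the 12 skeletal muscle markers, 5 of which were not above it there. For the 9 smooth muscle and pericyte markers it was 8601 and 1801, with all above the floor on both arrays. The part of these cell types in the differences of Sema3g, Sema3e, Sema4g, Plxnd1, Nrp1 and Nrp2 was not tested.

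Most keratinocyte markers were under 2-fold apart between the arrays, as were most members and 83.6% of all genes above the floor. Among 9 suprabasal epidermal markers, all read higher on the hairshaft array and 2 passed 2-fold, with a median of -0.42 and summed signals of 142735 on the bulge array against 160269 on the hairshaft array. The 8 basal keratinocyte markers had a median of -0.01 and summed signals of 58552 and 64528. Of these, 1 passed 2-fold in each direction, Lama5 (1.44) towards the bulge array and Itga6 (-1.10) towards the hairshaft array. Mast cell markers were at least 2-fold higher on the hairshaft array for 4 of 6 (summed signals 256 and 773), and fibroblast markers for 4 of 9 (49477 and 87588), with 2 fibroblast markers, Dpt and Postn, at least 2-fold higher on the bulge array. All 4 lists were above the floor on both arrays. Their part in the small differences of the ephrin-A, Eph receptor and class 3 semaphorin genes was not tested.

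**Figure D5:**
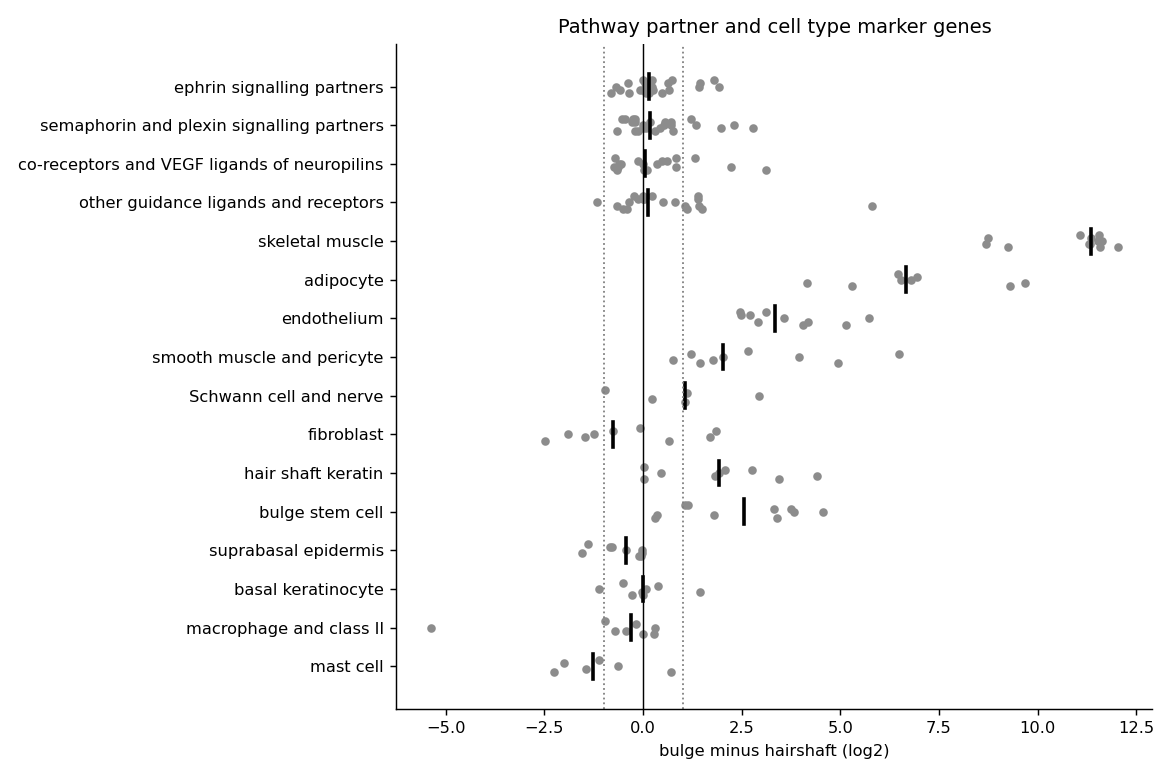
Bulge minus hairshaft difference (log2, x axis) of each gene above background in 4 lists of pathway genes and 12 lists of cell type markers; points are genes and black bars list medians. The 4 pathway lists centre near 0, whereas the skeletal muscle, adipocyte and endothelial lists lie to the right of 2-fold.

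Signalling genes downstream of the receptors were mostly under 2-fold apart, and those past it were all higher on the bulge array. Over all genes too, more passed 2-fold towards the bulge array (11.4%) than towards the hairshaft array (4.91%). In the ephrin signalling list, which holds adaptors, kinases and exchange factors that act with Eph receptors, 4 of 23 genes were at least 2-fold higher on the bulge array and none on the hairshaft array, with a median of 0.15. They were the lipid phosphatase Inppl1 (7.49 on the bulge array against 5.57 on the hairshaft array), the exchange factor Kalrn (5.23 and 3.43), the adaptor Grb10 (7.27 and 5.82) and the endothelial exchange factor Arhgef15, which read 4.10 on the bulge array and was not above the floor on the hairshaft array. The other 19 genes, among them the adaptors Nck1 and Nck2, the kinases Fyn, Src, Abl1 and Abl2 and the ephrin-cleaving protease Adam10, were under 2-fold apart.

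In the semaphorin and plexin signalling list, 5 of the 25 genes with a signal over the floor were higher on the bulge array by 2-fold or more, none on the hairshaft array, and the median was 0.17. Dpysl3, of the family that relays semaphorin signals to microtubules, read 7.99 on the bulge array against 5.21 on the hairshaft array. Farp1, an exchange factor near plexin-A, read 7.36 and 5.05, and Mical3, of a family of actin-oxidising enzymes, read 5.95 and 3.98. The small GTPases Rnd2 (7.02 and 5.67) and Rras (9.19 and 7.99) made up the 5. Rnd1, Crmp1 and Dpysl5 were not above the floor. The shares of 17.4% and 20.0% higher on the bulge array in these lists stand beside 11.4% of all genes. On the hairshaft side, none in either list stands beside 4.91% of all genes, a small share for lists of this size.

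Co-receptors and VEGF ligands of the neuropilins had 3 of 18 genes (16.7%) at least 2-fold higher on the bulge array and none on the hairshaft array (median 0.06), against 11.4% and 4.91% of all genes. Beside Kdr these were the ligand Vegfb, 6.70 on the bulge array against 4.47 on the hairshaft array, and the VEGF receptor Flt1, 5.56 and 4.25. Vegfa, the main angiogenic ligand, read 7.03 and 6.94, under 2-fold apart. The adhesion molecules L1cam (8.58 and 9.30) and Chl1 (11.61 and 12.24), which join neuropilin complexes, read slightly higher on the hairshaft array.

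Other guidance systems had 7 of 20 genes (35.0%) at least 2-fold higher on the bulge array, with a median of 0.12. Towards the hairshaft array, 1 of the 20 (5.0%) passed 2-fold. Of all genes above the floor, 11.4% passed it towards the bulge array and 4.91% in the opposite direction. The hairshaft share was thus near that of all genes, and the bulge share was above it. Hjv, a repulsive-guidance family member made by skeletal muscle, was at least 55.4-fold higher on the bulge array, where it read 8.47. The repellent Slit2 read 6.94 on the bulge array against 5.44 on the hairshaft array, the netrin ligand Ntn1 8.10 and 6.68, and Rgma, a neogenin ligand, 6.99 and 5.60. Slit3, Unc5b, a netrin receptor of vessels, and Robo4, the endothelial Robo, completed the 7. Flrt1, an Unc5 ligand, was the 1 gene past 2-fold towards the hairshaft array, at 5.23 and 6.39.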

How the data were processed

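Expression arrays were run on RNA from laser-cut bulge and hairshaft, 1 array each. Per the labels' protocols, 30 ng of total RNA were linearly amplified. The authors deposited log2 values made with GCRMA, per the submitters' processing notes; its version is not given in the sources used here, and their range (2.23 to 15.36) gave the log2 scale. No further scaling was applied.

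Probe sets were named from the platform annotation (34958 with 1 symbol, 932 with several, 9211 unnamed here), with symbols updated through Entrez identifiers against RefSeq of GRCm38.p6 for 34754; all 53 members matched. A gene took its probe set with the highest mean. A value at or below the floor (95th percentile of 80 olfactory and vomeronasal receptor probe sets) was replaced by the floor, and such folds are written "at least". No test was run, since with 1 array per group no residual degrees of freedom are left; the number of arrays limits the precision.

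Gene families and lists were chosen with earlier results of these data known; within the families, a symbol rule that used no values took the members. Given with both values were members at least 2-fold apart, the 5 others with the highest signal in each class, and up to 4 genes of each pathway list with the largest differences; other members are given by range or value, and other list genes named were chosen after their values were seen. Signals of different probe sets do not compare the RNA levels of different genes. Summed linear signals of a list are set mostly by its brightest probe sets. The counting was tested on simulated data. There were 7 alternatives: the 99th percentile as floor, no floor, the mean of probe sets, plain probe sets only (no _a_at, _s_at or _x_at), 16 added on the linear scale before log2 (the offset), removal of a loess trend (span 0.3) and, chosen after seeing the data, the mean of only those probe sets above the floor on at least 1 array. Python 3.11.15, pandas 2.3.3, numpy 2.4.6 and statsmodels 0.14.6 were used.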

Additional observations from a re-analysis of the deposited data

How the results depend on the processing

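There were 7 alternatives, of which the mean of probe sets above the floor was chosen after seeing the data. Over these, the ligand median ran from -0.12 to -0.05 and the receptor median from -0.02 to 0.21. The counts of ligands and of receptors at least 2-fold higher on the bulge array stayed within 1.5 times the reported ones. The members counted could change: when all probe sets were averaged, the 4 ligands held Efnb2 (1.32) in place of Sema6a (0.35). The counts on the hairshaft array did not stay within 1.5 times. When probe sets were averaged, 1 ligand and 1 receptor were at least 2-fold higher there, and with the offset of 16, 1 ligand and 0 receptors. With the loess trend removed, 0 receptors were. When only probe sets above the floor were averaged, 1 ligand was, and both receptors stayed past 2-fold. The receptors concerned, Epha1 and Ephb3, lie at the limit. None of the 11 members past 2-fold changed sign. Of these, 7 stayed past 2-fold when all probe sets were averaged, 9 when only those above the floor were, and 7 with the offset. Among the other named members, 4 changed sign in at least 1 alternative: Efnb1 (0.57, down to -0.63), Epha4 (0.35, down to -0.21), Sema3c (-0.05, up to 0.09) and Sema4a (-0.08, up to 0.01). No replicate could be left out, since each group has 1 array.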

Other observations

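Some probe sets above the floor, dim and bright ones alike, carried exactly the same value on both arrays. This held for 3289 of the 28721 probe sets above the floor (11.5%), up to a value of 13.93, and for 6 of the 85 probe sets of the members (7.06%). Among the members it concerned the probe sets that stand for Efnb3, Plxna4, Plxnb3 and Sema4d, and 1 probe set each of Nrp1 and Sema6d. Those of Efnb3 (3.01), Plxnb3 (3.06) and Sema6d (3.16) lay near the floor. For Sema4d and Nrp1 other probe sets of the same gene differed by up to 1.70 and 1.99 (log2). A difference of 0.00 in these genes is therefore a property of the deposited value of that probe set, and its cause was not tested.

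Probe sets of the same gene were the only repeated measurement. Of 24 members with at least 2 probe sets above the floor, 5 had all probe sets higher on the bulge array (Efnb2, Sema3e, Plxna3, Plxnb1 and Nrp2) and 9 had all higher on the hairshaft array (Efna1, Efna3, Sema3a, Sema3b, Sema3c, Sema3d, Sema3f, Sema6c and Epha1). In 3 (Nrp1, Sema4d and Sema6d) the probe sets pointed one way except for equal values. The other 7, namely Efnb1, Epha4, Plxna2, Plxnc1, Sema4a, Sema5a and Sema6a, had probe sets in both directions.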
